A study of Mus musculus with 14 samples.

Results

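The collagen alpha chain genes of the mouse were followed through embryonic dorsal skin and the aorta-gonad-mesonephros region (AGM, the tissue around the dorsal aorta where blood stem cells arise). They were taken as every gene of the deposited count table whose symbol is Col, a number, the letter a and a number, which gave 44 of 53465 genes. PolyA RNA-seq was done on wild type C57BL/6 embryos, with no allele or agent in any group, in 14 libraries. Skin of the back came from 4 ages, E9.5 through E10.5 and E12.5 to E14.5, under titles starting with E, and again from those ages under titles starting with ES, from another sequencing project, with 1 library per title. AGM was labelled E9.5 (given as the caudal embryo with the para-aortic splanchnopleura), E10.5 and E11.5, with 2 libraries per age, 1 from each of 2 sequencing rounds. The labels do not say what separates ES from E, nor whether libraries of a group had separate embryos, so a p-value here gauges the spread among these libraries only, which may be technical.

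Collagens are proteins of 3 alpha chains wound into a triple helix. Fibrillar collagens (types I, II, III, V and XI among them) form the load-bearing fibrils, and the FACIT collagens (fibril-associated collagens with interrupted triple helices, such as IX, XII and XIV) sit on their surface. Network collagen IV builds basement membranes, collagen VI forms beaded filaments around cells, and multiplexins XV and XVIII lie at basement membranes. In skin, collagen VII anchors the epidermal basement membrane to the dermis and the transmembrane collagen XVII holds basal keratinocytes to it, while collagens II, IX and XI are best known from cartilage.

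Total counts ran from 19929352 to 29534551 in the AGM and E-titled skin libraries and from 6770338 to 15440012 in ES-titled skin. Levels are CPM, the counts of a gene scaled by the total counts of its library. A few genes chosen with earlier results known bear on the labels. Lin28a, an RNA-binding protein of early embryos, lay at 366, 84.6, 0.667 and 0.94 CPM in E-titled skin at the 4 ages in order, and at 23 and 40.8 CPM in AGM labelled E9.5, 121 and 129 labelled E10.5 and 571 and 496 labelled E11.5. Thus Lin28a fell with age in skin and was highest in AGM libraries labelled with the latest age. Tbx6, a regulator of presomitic mesoderm, lay at 21.8 and 10.54 CPM in the libraries labelled E11.5 and at 1.12 and 0.904 in those labelled E9.5. Wt1, of the coelomic and mesonephric lineage, lay at 8.86 and 8.87 against 117 and 104 CPM. These values go against the age labels of AGM, so every AGM age below is the age as labelled, and no direction in time is drawn from it. The second-round AGM columns carry only sample numbers and were given the ages of the same numbers in the first round, which is an assumption. ES-titled skin also stood apart. Spp1, the matrix protein osteopontin, lay at 22229 to 34966 CPM there and 1.19 to 6.45 in E-titled skin, Mki67 of dividing cells at 3.54 to 19 against 494 to 869.9, and 5 red cell genes summed to 0 to 0.148 against 2180.1 to 4739.6 CPM. The epidermal keratin Krt14 was at 0 CPM in ES-titled skin of E12.5 and E14.5, against 34.3 and 459 CPM in E-titled skin.

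**Figure D1:**
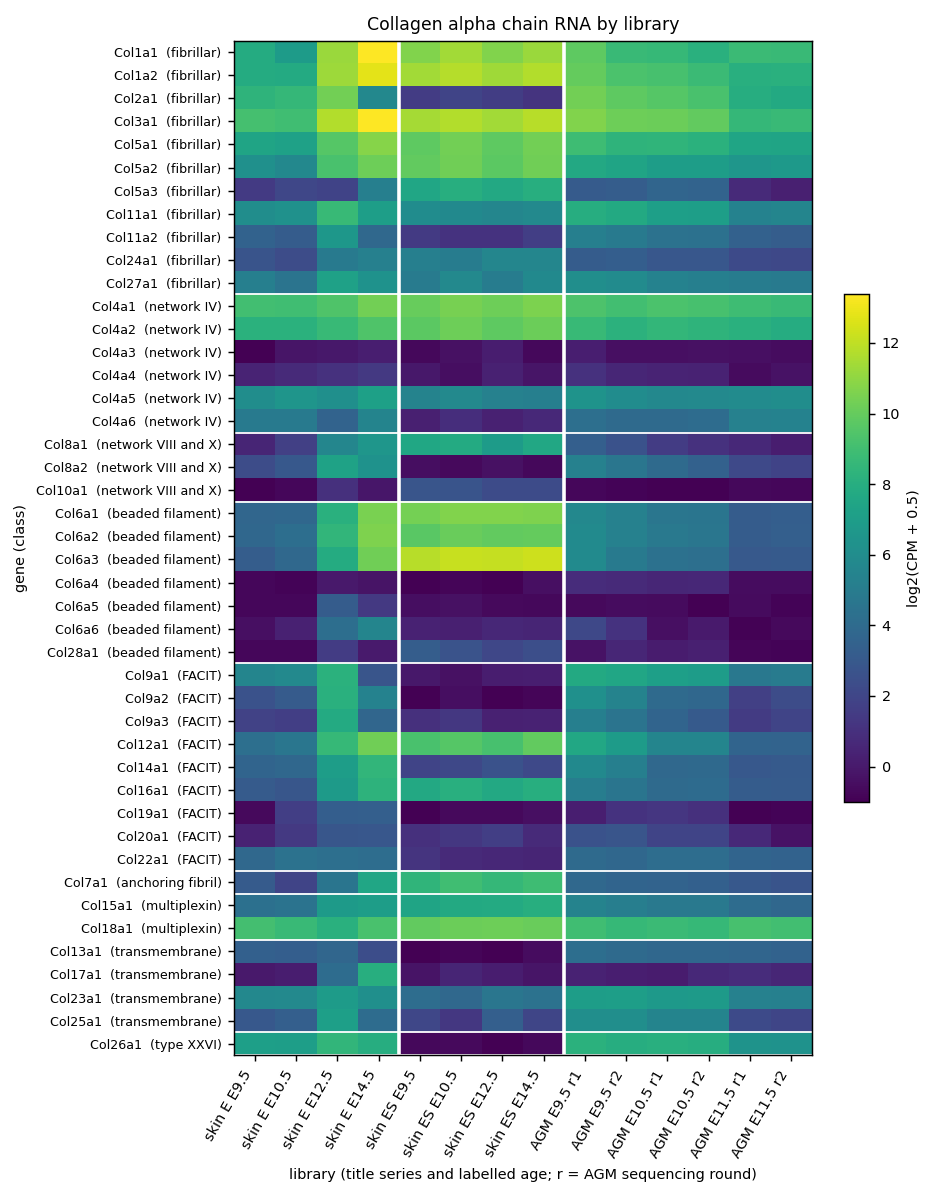
Log2(CPM + 0.5) of all 44 collagen chain genes (rows, grouped by class) in 14 libraries (columns: E-titled skin, ES-titled skin, AGM with both rounds of each labelled age). Most fibrillar and beaded-filament chains are brighter at E14.5 than at E10.5 in E-titled skin, where Col1a1 goes from 118 to 10467 CPM. Col2a1 goes from 386 to 51.7 CPM instead, and some chains, such as Col11a1, are brightest at E12.5. The 4 ES-titled columns look alike.

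The 3 head-to-head pairs of collagen IV genes are shown first, because the chains of each pair are transcribed away from a common stretch of DNA and assemble with each other. Col4a1 and Col4a2, the chains of nearly every basement membrane, overlap by 22 bases at their first exons (GRCm38 chr8:11312805-11312826), printed on the plus strand. Motifs were not marked in these bases, which hold the letters gggcgg, the GC box spelling given below. The starts of Col4a3 and Col4a4 lie 71 bases apart (chr1:82586850-82586920), printed on the minus strand, and those of Col4a5 and Col4a6 1308 bases apart on the X chromosome.
Col4a1 and Col4a2: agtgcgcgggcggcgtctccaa
Col4a3 and Col4a4: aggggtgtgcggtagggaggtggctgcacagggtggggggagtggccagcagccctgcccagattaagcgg

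Promoters were read for 35 of the 44 genes, in 38 windows of RefSeq on GRCm38.p6. Those of Col1a2 and Col3a1 are printed, because these genes rose together in skin and lie among the most abundant chains. Each is the 250 bases before the RefSeq start, on the plus strand, at chr6:4505368-4505617 for Col1a2 and chr1:45311288-45311537 for Col3a1. Capitals mark the matches of 4 motifs, none of which overlaps another in these windows and which were searched on both strands. The GC box was spelled GGGCGG. The TATA box was spelled TATAAA. The SOX core was spelled ACAAAG or, with 1 other base, ACAATG. The CCAAT box was searched by the letters of its name.
Col1a2: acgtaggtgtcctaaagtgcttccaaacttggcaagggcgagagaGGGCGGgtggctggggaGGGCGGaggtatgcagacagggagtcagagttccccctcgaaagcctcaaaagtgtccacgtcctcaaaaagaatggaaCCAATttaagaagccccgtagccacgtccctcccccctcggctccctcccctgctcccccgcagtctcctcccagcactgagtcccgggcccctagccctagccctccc
Col3a1: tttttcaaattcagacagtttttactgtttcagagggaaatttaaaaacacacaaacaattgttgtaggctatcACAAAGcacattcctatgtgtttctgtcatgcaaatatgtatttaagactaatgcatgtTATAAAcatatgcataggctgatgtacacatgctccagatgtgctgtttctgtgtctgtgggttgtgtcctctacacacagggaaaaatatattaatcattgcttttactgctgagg
The 2 windows share none of these matches, since Col1a2 holds 2 GC boxes and a CCAAT box, and Col3a1 a TATA box and a SOX core. Over the 38 collagen windows a GC box was found in 57.9% (32.7% of 32851 windows of all genes), a CCAAT box in 34.2% (33.8%), a TATA box in 13.2% (12.4%) and a SOX core in 10.53% (25.2%). These are matches of letters, not binding sites.

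In E-titled skin, collagen chains took 0.356, 0.331, 1.63 and 4.17% of all counts from the youngest age to the oldest. The rise began after E10.5 and was carried by fibrillar, beaded-filament and FACIT chains. Between E10.5 and E12.5, 34 of the 44 chains rose, 2 fell and 8 did not pass, where 30.1% of all 19945 tested genes passed in either direction. The median log2 change of the chains was 2.70, and 0 over all genes. From E12.5 to E14.5, 20 rose, 11 fell and 13 did not pass, against 27.5% of all genes, with medians of 0.63 and 0.02. From E9.5 to E10.5, in contrast, 1 chain rose (Col19a1, from 0.151 to 2.69 CPM, named after its value was seen) and 1 fell (Col7a1), against 6.43% of all genes (4.64% higher and 1.79% lower), so this first step held no more calls than the background. With the AGM round as a block, 10 chains passed in that first step. The block lowered the common dispersion (the fitted spread between replicates) from 0.0147 to 0.00396. The share of all genes that passed with it is not given. Calls are edgeR's quasi-likelihood test at an adjusted p under 0.05 over all tested genes, and ± marks the SE of a log2 change. Each skin age is a single library, whose spread was taken from the AGM pairs. With the ES-titled libraries in the fit as replicates of the same ages, edgeR called 0 chains in each of the 3 steps. At an unadjusted p under 0.05 there were 0, 3 and 1. That fit counted the gap between titles as spread, with a common dispersion of 0.664 against 0.0147 without these libraries. Its 0 therefore cannot decide whether the steps hold. All the calls of E-titled skin rest on single libraries. In such bulk samples, fewer cells of a type and less RNA per cell cannot be told apart.

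Collagens I and III, which make up most dermal fibrils, showed the largest absolute gains. Col1a1 (ENSMUSG00000001506, chromosome 11, 94936224 to 94953042 on GRCm38) lay at 231, 118, 2363 and 10467 CPM from E9.5 to E14.5. The E14.5 library was the highest of all 14 and the E10.5 library the lowest. Its log2 change was 4.28 ± 0.48, adjusted p = 0.000436, from E10.5 to E12.5 and 2.28 ± 0.44, adjusted p = 0.00596, from E12.5 to E14.5. Its partner chain Col1a2 went through 234, 219, 2516 and 7198 CPM. Col3a1 (ENSMUSG00000026043, chromosome 1, 45311538 to 45349706), the homotrimer of distensible tissues, went through 575, 499.8, 3343 and 10693 CPM and changed by 1.81 ± 0.23, adjusted p = 0.000698, in the last step. Each of these chains stayed level or lower at E10.5 than at E9.5 and stood higher at each later age. At E14.5 Col3a1 and Col1a1 held 25.7% and 25.1% of all collagen counts. The dermal mesenchyme markers (Pdgfra, Twist2, Twist1, Prrx1, Dpt and Lum) summed to 476, 358, 1933 and 1824 CPM over the same ages. All 6 rose from E10.5 to E12.5. From E12.5 to E14.5, 3 rose and 2 fell. Their part in the collagen result was not tested.

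Collagen V, which seeds collagen I fibrils and sets their width, split by chain. Col5a1 lay at 166, 148, 764 and 1730.4 CPM and Col5a2 at 72.7, 51.9, 599 and 1172. Both followed collagen I. Col5a3 stayed at 2.21, 3.61 and 3.17 CPM and reached 36.7 CPM only at E14.5, a log2 change of 3.66 ± 0.27, adjusted p = 6.15e-05. The timing of collagen I was therefore not shared by every fibrillar chain. Among the minor fibrillar chains, Col24a1 went through 6.17, 4.58, 28.7 and 38 CPM and Col27a1 through 36, 22.6, 152 and 79.1. Col27a1 was highest at E12.5 and changed by -0.81 ± 0.16, adjusted p = 0.00713, after it.

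Collagen VI, the microfibril around cells in most connective tissue, rose steeply. Its chains Col6a1, Col6a2 and Col6a3 assemble as a unit. Col6a1 lay at 13.1, 13.4, 283 and 1412 CPM, Col6a2 at 13.3, 17.9, 354 and 1532 and Col6a3 at 9.03, 13.9, 229.5 and 1234. The 3 moved in parallel, with log2 changes from E10.5 to E12.5 of 4.35 ± 0.21, 4.26 ± 0.29 and 3.999 ± 0.42 (adjusted p at most 0.000307) and to E14.5 of 2.45 ± 0.19, 2.24 ± 0.26 and 2.56 ± 0.38 (at most 0.00162). Of the alternative chains, which can take the place of Col6a3, Col6a6 went through 0.251, 0.748, 17.5 and 45.5 CPM. Col6a5 had 2, 2, 208 and 48 counts, so it peaked at E12.5, and Col6a4 stayed under 1 CPM.

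FACIT chains of fibrous tissue rose with collagen I. Col12a1 (ENSMUSG00000032332, chromosome 9, 79598991 to 79718831), of tendon, fascia and dermis, went through 18.5, 24.2, 393 and 1234 CPM, and Col14a1 through 12, 13.5, 128 and 358. Col16a1 went through 8.13, 6.74, 113 and 318 CPM and changed by 4.02 ± 0.26, adjusted p = 4.20e-05, to E12.5. All 3 were highest at E14.5. Tendon markers (Scx, Tnmd, Mkx and Fmod) summed to 10.7, 18.9, 196 and 178 CPM, and 4 of 4 rose to E12.5. From E12.5 to E14.5, 1 tendon marker rose and 2 fell. Col22a1, a FACIT chain of tissue junctions, lay at 13.9, 21.2, 18.3 and 17.3 CPM and passed in neither later step. Col19a1 and Col20a1 stayed under 10 CPM at every age. Of the network chains VIII, found in vessel walls and the cornea, Col8a1 went through 0.903, 2.82, 47.2 and 92.9 CPM and Col8a2 through 4.67, 7.31, 159 and 81.3, the latter with a log2 change of 4.39 ± 0.38, adjusted p = 0.000131. Col8a1 was highest at E14.5 and Col8a2 at E12.5, and neither passed in the last step.

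Chains of cartilage rose and then fell. Col2a1 (ENSMUSG00000022483, chromosome 15, 97975602 to 98004695), the main fibril chain of cartilage, lay at 326, 386, 1281 and 51.7 CPM at the 4 ages. Its E12.5 library was the highest of the 4 and its E14.5 library the lowest, a log2 change of -4.50 ± 0.29, adjusted p = 3.34e-05. Col9a1 went through 46.5, 54.1, 288 and 6.54 CPM, Col9a2 through 5.62, 8.1, 275 and 41.9 and Col9a3 through 3.11, 2.73, 225 and 12.8. The 3 collagen IX chains, which coat collagen II fibrils, peaked together at E12.5. They differed in their start, since Col9a1 already stood at 46.5 CPM at E9.5 and the other two under 6 CPM. Their changes to E12.5 were 2.36 ± 0.18, 5.04 ± 0.42 and 6.31 ± 0.47 on the log2 scale, and from there to E14.5 they fell, with changes of -5.33 ± 0.21, -2.59 ± 0.37 and -4.01 ± 0.40 (each with an adjusted p of 0.00132 or less). Collagen XI, the core of cartilage fibrils, behaved alike. Col11a1 lay at 66, 76.5, 405 and 131 CPM and Col11a2 at 10.8, 8.54, 98.2 and 14, with changes after E12.5 of -1.49 ± 0.15, adjusted p = 0.000219, and -2.68 ± 0.21, adjusted p = 7.60e-05. Cartilage markers without collagens (Sox9, Acan, Matn1, Cnmd, Hapln1 and Matn4) summed to 263, 279, 629.7 and 46.6 CPM. From E10.5 to E12.5, 5 of 6 rose and 1 fell, and from E12.5 to E14.5 all 6 fell. Whether the marker bearing tissue accounts for these chains was not tested.

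Other chains peaked at E12.5 too. Col25a1, a transmembrane collagen needed for motor nerves to reach muscle, went through 7.23, 9.86, 138 and 16.3 CPM and changed by -2.96 ± 0.16, adjusted p = 1.77e-05, in the last step. Col13a1, a transmembrane collagen of the neuromuscular junction, lay at 10.2, 9.46, 13.2 and 4.7 CPM, with a change of -1.35 ± 0.23, adjusted p = 0.00333, in the last step. Col23a1 lay at 52.1, 54.1, 117 and 70.1 CPM and Col26a1 at 139, 136, 348 and 244. All 4 were highest at E12.5, but the fall of Col26a1 to E14.5 did not pass. The rise of Col13a1 from E10.5 to E12.5 was small, at 0.456 on the log2(CPM + 0.5) scale. Neural markers (Sox1, Pax6, Dcx, Tubb3 and Nefm) summed to 398, 1615, 832 and 68.5 CPM and skeletal muscle markers (Myod1, Myog, Actc1 and Myh3) to 86.9, 243, 1352 and 2509 CPM. The sums were highest at E10.5 and E14.5. Among the muscle markers, Myod1, at 0.552, 3.43, 83.1 and 33 CPM, and Myog, at 13.9, 29.2, 157 and 86, were highest at E12.5. Actc1, at 44.3, 84.9, 569 and 796 CPM, and Myh3, at 28, 125, 542 and 1594, were highest at E14.5 and made up most of the muscle sum. The part of the neural and muscle markers in the levels of these chains was not tested.

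**Figure D2:**
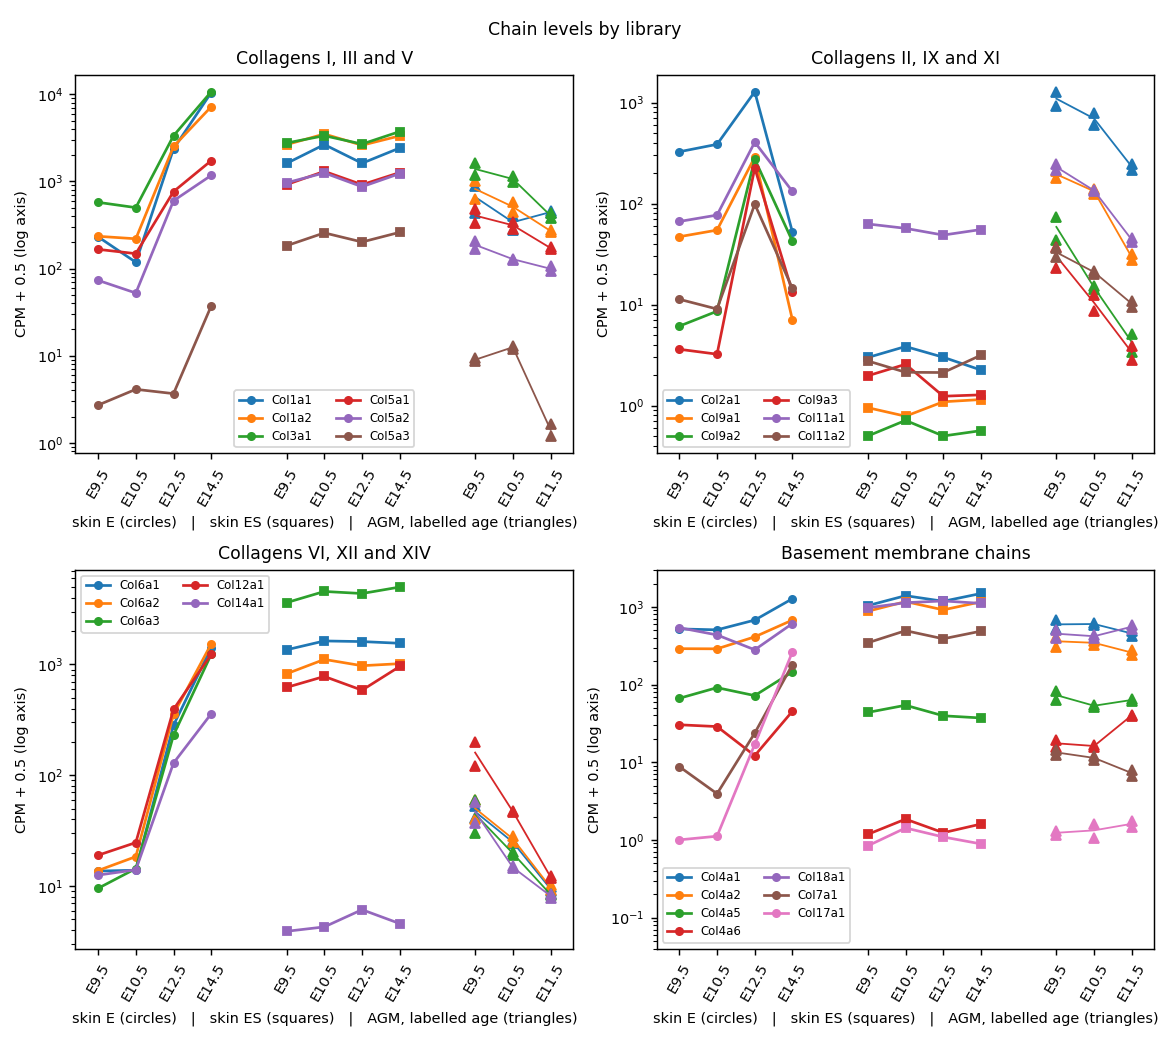
CPM + 0.5 on a log axis for 24 collagen chains in 4 panels (collagens I, III and V, collagens II, IX and XI, collagens VI, XII and XIV, and basement membrane chains), by age for E-titled skin (circles), ES-titled skin (squares) and AGM (triangles, 1 per round, lines through their means). Collagens I, III and VI climb to E14.5 in E-titled skin, whereas Col2a1 peaks at 1281 CPM at E12.5 and falls to 51.7.

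Basement membrane chains followed other courses. Col4a1 (ENSMUSG00000031502, chromosome 8, 11198423 to 11312826) lay at 520.0, 506, 676 and 1275 CPM and Col4a2 at 289, 288, 411 and 677. Neither passed from E10.5 to E12.5 (log2 changes of 0.37 ± 0.19 and 0.46 ± 0.22), and both rose to E14.5, by 1.05 ± 0.19, adjusted p = 0.00502, and 0.85 ± 0.22, adjusted p = 0.0211. Their share of collagen counts fell from 15.3% and 8.69% at E10.5 to 3.06% and 1.62% at E14.5. Col4a6 (ENSMUSG00000031273, chromosome X, 141165403 to 141474076), of epithelial and smooth muscle basement membranes, lay at 29.9, 28.3, 11.7 and 44.9 CPM. It was lowest at E12.5, with a change of -1.33 ± 0.19, adjusted p = 0.00153, into that age and 2.07 ± 0.19, adjusted p = 0.000165, out of it. Its neighbour and partner chain Col4a5 lay at 66.1, 90.8, 71.6 and 145 CPM and rose in the last step by 1.15 ± 0.19, adjusted p = 0.00289. Col18a1 (ENSMUSG00000001435, chromosome 10, 77052178 to 77166548), the source of endostatin, ran through 539, 435, 280.0 and 610.3 CPM. Like Col4a6 it was lowest at E12.5, with changes of -0.69 ± 0.19, adjusted p = 0.0262, and 1.25 ± 0.19, adjusted p = 0.00181. Col15a1, the other multiplexin, went through 19, 22.1, 115 and 128 CPM and rose before E12.5 only. Endothelial markers (Pecam1, Cdh5, Kdr, Tek, Tie1 and Emcn) summed to 366, 309.8, 481 and 604 CPM over these ages. Col4a3 and Col4a4, chains of kidney and lung basement membranes, stayed at or under 2.1 CPM.

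The chains that fasten epidermis to dermis came up late. Col17a1 (ENSMUSG00000025064, chromosome 19, 47646344 to 47692094) lay at 0.502, 0.616, 16.5 and 263 CPM. The E14.5 library was far above the other 3, and the chain rose in both later steps, by 4.68 ± 0.34, adjusted p = 6.37e-05, and 4.13 ± 0.24, adjusted p = 2.17e-05. Col7a1 (ENSMUSG00000025650, chromosome 9, 108953586 to 108984875) lay at 8.28, 3.43, 23.2 and 180.5 CPM. It fell from E9.5 to E10.5 (-1.27 ± 0.25, adjusted p = 0.0208) and then rose by 2.71 ± 0.23, adjusted p = 0.000127, and 3.09 ± 0.21, adjusted p = 3.89e-05. Epidermal markers (Krt5, Krt14, Krt15, Trp63, Krt8 and Krt18) summed to 93.9, 27.8, 204 and 3073 CPM at the same ages. Of these, 4 rose and 1 fell to E12.5, and 6 of 6 rose to E14.5.

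Genes that make and handle collagen moved with the chains in E-titled skin. Of 26 genes for biosynthesis and processing, 22 rose and none fell from E10.5 to E12.5, with a median log2 change of 1.40. In that step 17.4% of all genes rose and 12.7% fell. Adamts2, which trims the amino end of procollagen, rose from 2.02 to 46.2 CPM (4.46 ± 0.46, adjusted p = 0.000297). P4ha3, a prolyl hydroxylase subunit, rose by 3.51 ± 0.34, adjusted p = 0.000214, and P3h3 by 2.39 ± 0.18, adjusted p = 6.49e-05. In the next step 10 rose and 3 fell, among them P4ha1, from 132 to 446 CPM (1.89 ± 0.13, adjusted p = 4.66e-05), and Pcolce2, an enhancer of procollagen cleavage, which changed by -3.15 ± 0.31, adjusted p = 0.000211. All 6 crosslinking genes rose to E12.5. Lox, the lysyl oxidase that crosslinks fibrils, went through 3.21, 4.71, 221 and 755 CPM over the 4 ages, with changes of 5.50 ± 0.32, adjusted p = 3.05e-05, and 1.90 ± 0.26, adjusted p = 0.00102, so it rose in both steps. Loxl3 rose by 2.34 ± 0.24 and then changed by -1.37 ± 0.22, adjusted p = 0.00269. Of 10 receptor and uptake genes, 5 rose and 1 fell to E12.5. Ddr2, the receptor for fibrillar collagen on mesenchyme, rose (2.43 ± 0.16, adjusted p = 4.11e-05), and Ddr1, its epithelial relative, fell (-0.86 ± 0.22, adjusted p = 0.0188). To E14.5, 4 rose and none fell, among them the integrin subunit Itga1 (1.63 ± 0.16, adjusted p = 0.000224). From E9.5 to E10.5, none of the crosslinking or receptor genes passed edgeR's test and 2 of 26 biosynthesis genes fell, P4ha2 and P3h2. Of the 44 collagen chains 11 (25%) had an unadjusted p under 0.05 in that step, and 19.3% of all genes.

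ES-titled skin held collagen RNA at another level and in another mixture, with little change over the ages. Collagens took 1.95, 2.55, 2.09 and 2.6% of its counts in order of age. Between successive ages, with no test, 0, 2 and 1 of 42 chains moved past 2-fold on the log2(CPM + 0.5) scale, where 4.24%, 11.4% and 13.2% of all 18678 genes did. In E-titled skin the same count was 4, 34 and 28 of the 42 chains, against 7.6%, 19.3% and 19.5% of all genes.

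Against E-titled skin over the 4 ages, with age as a block, 11 of 40 tested chains were higher in ES-titled skin, 12 were lower and 17 did not pass. The number higher was 18 with DESeq2 and 18 without the E14.5 library of either title, and 7 without the E9.5 library of either title or the ES-titled E10.5 library. Without both E9.5, E10.5 or E14.5 libraries it was 7, 6 and 18, while the number lower lay between 12 and 14 in these fits. Of all 16588 genes 58.8% passed, so the collagens were called about as often as any gene. Title and sequencing project are the same split and cannot be told apart. The chain highest in ES-titled skin was Col6a3 (ENSMUSG00000048126, chromosome 1, 90765923 to 90843971), at 3617, 4561, 4369.9 and 4999 CPM against 9.03, 13.9, 229.5 and 1234 in E-titled skin. Every ES-titled library was above every E-titled one, the log2 difference was 6.30 ± 1.59, adjusted p = 0.0161, and the chain held 17.9 to 20.9% of collagen counts. The difference narrowed with age, from 8.57 at E9.5 to 2.02 at E14.5 on the log2(CPM + 0.5) scale. Col6a1 lay at 1356, 1629.9, 1609 and 1553 CPM, a difference of 4.57 ± 1.59, adjusted p = 0.0478, and this call was lost in 9 of the 12 fits that left out a library or an age. Col6a2 lay at 824, 1110.4, 974 and 1016 CPM and did not pass.

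Col5a3 stood at 182, 256, 201 and 260.0 CPM in ES-titled skin, where E-titled skin reached 36.7 CPM at most, a difference of 5.75 ± 0.77, adjusted p = 0.00171. Col7a1 lay at 345, 494, 388 and 487 CPM, again above every E-titled library, with a difference of 4.91 ± 1.06, adjusted p = 0.00931. Epidermal markers summed to 14.1 to 31.5 CPM there, most of it the simple epithelial keratin Krt8, at 25.3, 24.9, 25.7 and 10.4 CPM. Krt5 reached at most 1.62 CPM there, Krt15 0.68, Trp63 0.648 and Krt14 0.142. Col17a1 lay at 0.34, 0.926, 0.591 and 0.389 CPM. Some basement membrane chains were higher as well, with Col4a2 at 879, 1169.8, 915 and 1161 CPM (1.72 ± 0.28, adjusted p = 0.00335), Col18a1 at 974, 1132, 1193 and 1109 (1.62 ± 0.31, adjusted p = 0.00575) and Col15a1 at 170.4, 213, 224 and 259.6 (2.43 ± 0.51, adjusted p = 0.00857). Endothelial markers were lower there, summing to 18.9 to 39.1 CPM, and all 6 were lower. Col10a1, the chain of hypertrophic cartilage, lay at 6.46, 6.05, 4.43 and 4.47 CPM against 0 to 1.5, and Col28a1 at 8.84, 5.91, 3.69 and 4.99 against 0.088 to 2.46. Col24a1 was the other named chain that was higher, by 1.94 ± 0.51. Both Col10a1 and Col28a1 were low in absolute terms.

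Most collagens of cartilage were near 0 in ES-titled skin. Col2a1 lay at 2.49, 3.35, 2.51 and 1.75 CPM, a difference of -6.59 ± 0.71, adjusted p = 0.000866. Col9a1 lay at 0.453, 0.285, 0.591 and 0.648 CPM and Col9a2 had 4 counts in all over the 4 libraries. Both passed, while Col9a3 and Col11a1 did not. Col11a1 stayed at 62.4, 56.4, 48.3 and 54.9 CPM beside a Col11a2 of 2.27, 1.64, 1.62 and 2.66. Cartilage markers summed to 9.76 to 15.2 CPM there, and Matn1 was at 0 in 3 of the 4 libraries. Col26a1 (ENSMUSG00000004415, chromosome 5, 136741759 to 136883209), a collagen of uncertain class first known from testis and ovary, had 5 counts in all over the ES-titled libraries and lay at 139, 136, 348 and 244 CPM in E-titled skin, a difference of -10.44 ± 0.45, adjusted p = 0.000211. Col8a2 had 8 counts and Col13a1 4, and both passed as lower. Col4a6 lay at 0.68, 1.35, 0.739 and 1.1 CPM (-4.49 ± 0.39, adjusted p = 0.000527), while its partner Col4a5, at 43.3, 53.7, 39.1 and 36.7 CPM, did not pass. Col14a1 lay at 3.4, 3.77, 5.61 and 4.08 CPM (-3.28 ± 0.94, adjusted p = 0.0248). Col12a1, a FACIT chain of the same tissues, lay at 620.5, 779, 585 and 959 CPM and did not pass. Col22a1 was lower too (-3.57 ± 0.37, adjusted p = 0.0008).

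The main fibrillar chains crossed over between both title series. Col1a1 lay at 1610.2, 2647, 1615 and 2419 CPM in ES-titled skin, Col1a2 at 2643, 3502, 2599 and 3332 and Col3a1 at 2759, 3345, 2682 and 3735. Each was above E-titled skin at E9.5 and E10.5 and below it at E14.5, so that none passed over the 4 ages. For Col1a1 the difference went from 2.8 at E9.5 through 4.49 and -0.549 to -2.11 at E14.5 on the log2(CPM + 0.5) scale. Col5a1, at 919, 1305, 917 and 1264 CPM, and Col5a2, at 965, 1252, 868 and 1229, did not pass either. Col16a1 lay at 207, 274, 208 and 259 CPM and Col8a1 at 189, 224, 119 and 199. Of the handling genes, 13 of 26 for biosynthesis were higher and 3 lower, and 4 of 6 crosslinking genes were higher and none lower, shares near the 58.8% of all genes that passed. Loxl3 led these, at 320.2 to 485 CPM against 4.47 to 33.2 (5.60 ± 0.63, adjusted p = 0.001). Of 8 tested receptor genes, 5 were higher and 1 lower, with Ddr2 at 3.04 ± 0.54 and Ddr1 at -2.83 ± 0.25.

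**Figure D3:**
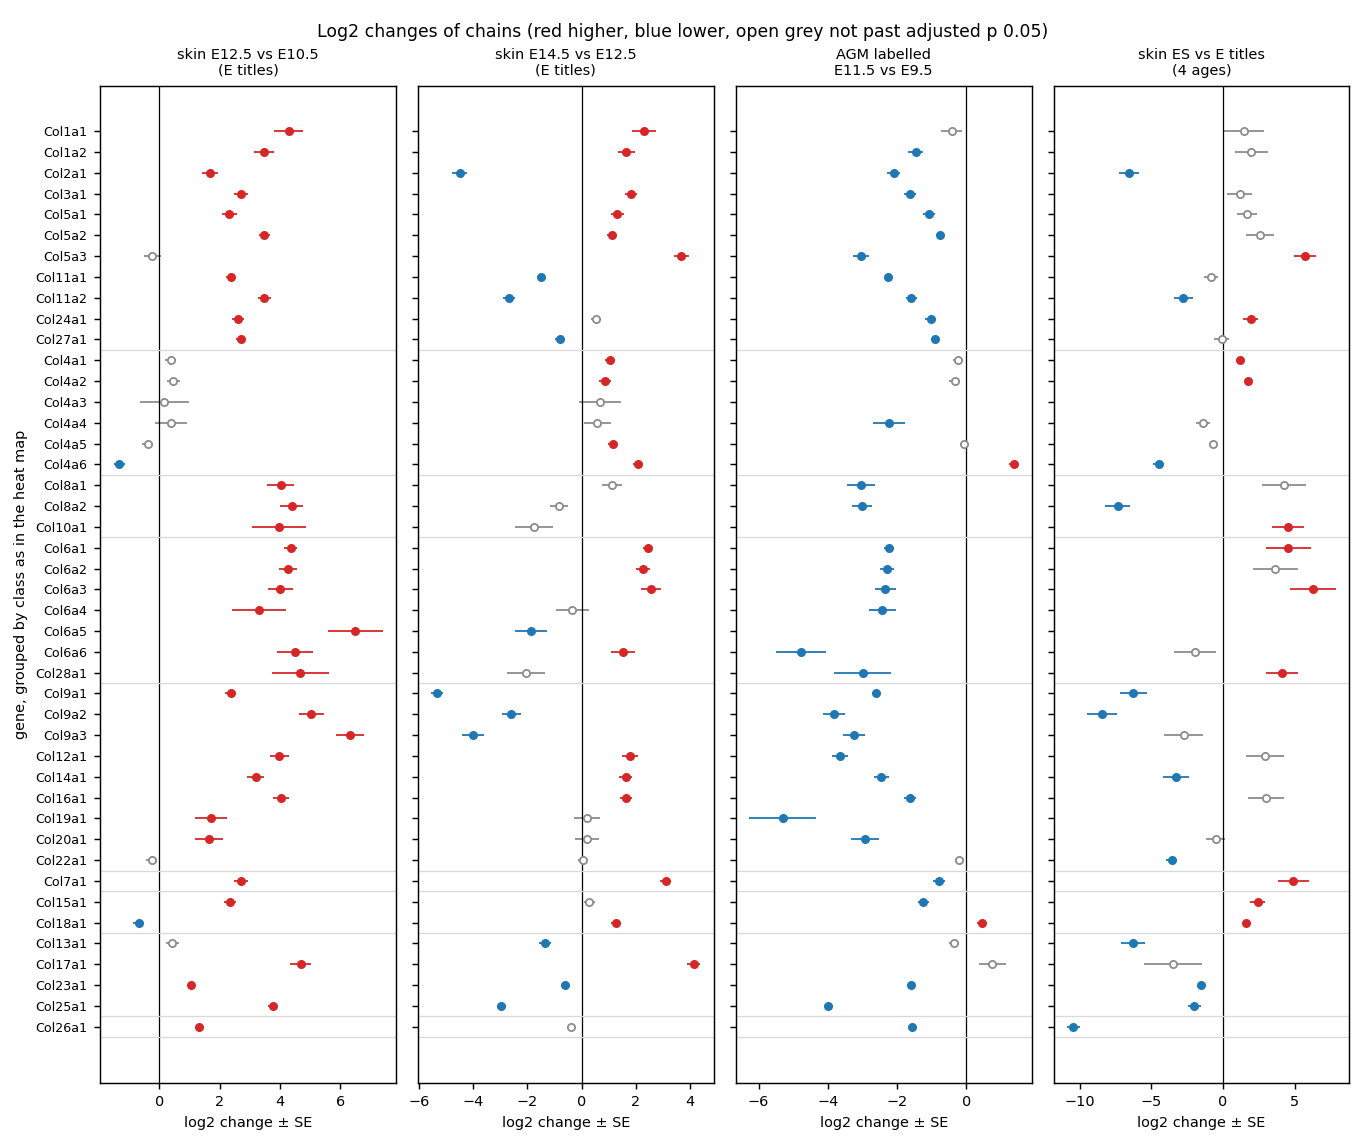
Log2 changes with SE (x axis) of each tested collagen chain (y axis, grouped by class) in 4 comparisons: E-titled skin E12.5 against E10.5, E14.5 against E12.5, AGM labelled E11.5 against E9.5, and ES-titled against E-titled skin. Red and blue points passed an adjusted p of 0.05 and open grey points did not. Chains of cartilage turn from red in the first panel to blue in the second, and in the third only Col4a6 (1.36 ± 0.13) and Col18a1 (0.45 ± 0.14) are red.

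In AGM, collagen RNA was highest in libraries labelled E9.5 and lowest in those labelled E11.5. The chains together took 0.892 and 0.639% of counts in the first and second round labelled E9.5, 0.592 and 0.509% labelled E10.5 and 0.342 and 0.327% labelled E11.5. Labelled E11.5 against E9.5, 2 of 41 tested chains were higher, 32 lower and 7 did not pass, where 45.2% of all 17613 genes passed. The median log2 change was -1.63 over the chains and near 0 over all genes. Labelled E11.5 against E10.5, 2 were higher and 29 lower (27.2% of all genes passed), and 4 were higher with the round as a block. Labelled E10.5 against E9.5, none was higher by edgeR or DESeq2 and 11 were lower (2.59% of all genes passed, 0.874% higher), while 24 chains (58.5%) and 19.4% of all genes had an unadjusted p under 0.05. The count of 11 moved with single libraries. It was 2 without the first round labelled E9.5, 16 without the second, 4 without the first round labelled E10.5 and 0 without the second. With the round as a block 27 chains passed, 1 of them higher, at a common dispersion of 0.00333. The share of all genes under the block is not given. In a fit that also held all skin libraries, edgeR called 0 chains for E10.5 against E9.5, E11.5 against E10.5 and E11.5 against E9.5. At an unadjusted p under 0.05 there were 0, 3 and 6. Both skin titles counted as replicates there, and the common dispersion was 0.664 against 0.0146 in the AGM fit. That 0 therefore cannot decide whether the AGM differences hold. With the round and the title series as blocks 0, 2 and 4 chains passed. Col10a1, Col4a3 and Col6a5 had too few counts to be tested here.

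Of the FACIT chains, 8 of 9 were lower in libraries labelled E11.5 than in those labelled E9.5. Col12a1 lay at 199 and 119.9 CPM in rounds 1 and 2 labelled E9.5, 46.6 and 46.6 labelled E10.5 and 11.8 and 11.3 labelled E11.5. The 3 labels did not overlap, and the log2 change was -1.72 ± 0.21, adjusted p = 0.015, from E9.5 to E10.5 and -1.91 ± 0.22, adjusted p = 0.000776, from there to E11.5. Col9a2 lay at 73.6 and 42.9, 14.9 and 13.7, and 2.86 and 4.65 CPM in the same order, a change of -3.82 ± 0.31, adjusted p = 6.65e-05, over both steps. Col9a3, at 36.6 and 22.7 and then 2.34 and 3.39 CPM, changed by -3.24 ± 0.31, adjusted p = 0.000156, and Col9a1 went from 209 and 180.0 to 27 and 30.8 CPM. Col14a1 went from 56.3 and 36.3 to 7.33 and 7.94 CPM (-2.46 ± 0.21, adjusted p = 8.57e-05). Among FACIT chains above 10 CPM, Col22a1 alone did not pass, at 15.3 and 13.5 against 11.8 and 10.9 CPM.

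Fibrillar chains were lower in 10 of 11 genes. Col3a1 went from 1607 and 1169.5 CPM labelled E9.5 to 1142 and 988 and 381 and 429 labelled E10.5 and E11.5. Col2a1 went from 1267 and 919 to 783 and 607 and 246 and 217 CPM, and Col11a1 from 245 and 215 to 137 and 132 and 41.3 and 45.4. Round 1 was above round 2 under the label E9.5 for all 3, and for Col3a1 and Col2a1 round 2 of E9.5 lay nearer to round 1 of E10.5 than to its own partner. Col1a2 went from 1007 and 630.0 to 264 and 275 CPM. Col1a1 was the exception, at 886 and 436 CPM labelled E9.5, 403 and 277 labelled E10.5 and 452 and 437 labelled E11.5. Its rounds labelled E9.5 differed by more than the labels did, and no pair of labels passed. Col5a3 stood at 8.16 and 8.79, then 12.48 and 11.504, then 1.13 and 0.697 CPM, with a change from E10.5 to E11.5 of -3.60 ± 0.24, adjusted p = 6.01e-05.

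All tested beaded filament and network VIII chains (6 and 2) were lower under the label E11.5 than under E9.5. Col6a1 went from 52.6 and 40.2 to 8.58 and 9.24 CPM, Col6a2 from 59.6 and 39.8 to 8.62 and 9.8 and Col6a3 from 58.9 and 29.3 to 7.74 and 8.04. Col8a1 went from 9.85 and 5.75 to 1.09 and 0.604 CPM (-3.04 ± 0.40, adjusted p = 0.000658) and Col8a2 from 39.3 and 25 to 3.99 and 3.16 (-3.02 ± 0.28, adjusted p = 0.00014). The transmembrane chain Col25a1 (ENSMUSG00000058897, chromosome 3, 130131501 to 130599877) had the largest change of any chain above 5 CPM, from 67.4 and 69.5 through 44.3 and 44.5 to 4.19 and 3.53 CPM (-3.995 ± 0.13, adjusted p = 3.05e-06). Most of it lay between the labels E10.5 and E11.5 (-3.43 ± 0.13, adjusted p = 9.60e-06). Col26a1 held at 289 and 248 and 269.5 and 253 CPM and then stood at 83.1 and 79.9 (-1.59 ± 0.11, adjusted p = 6.44e-05).

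The chains that went the other way were both of basement membranes. Col4a6 lay at 18.8 and 15.2 CPM labelled E9.5, 15.1 and 16.2 labelled E10.5 and 39 and 40.4 labelled E11.5, a change of 1.36 ± 0.13, adjusted p = 0.000148. Col18a1 lay at 505 and 398, 439.9 and 397 and 586 and 524 CPM, a smaller change of 0.45 ± 0.14, adjusted p = 0.0296. It was lost without the first round labelled E11.5 or the second round labelled E9.5, where the changes were 0.35 and 0.28. Col4a1, at 670.5 and 519.6 and 486 and 423 CPM, Col4a2, at 414 and 308 and 278 and 237, and Col4a5 did not pass between the outer labels. Endothelial markers summed to 419 and 339.6 CPM labelled E9.5 and 404 and 329 labelled E11.5. Epidermal and simple epithelial markers summed to 68.6 and 63.8 and 218 and 229.6 CPM, with 4 of 6 higher. Dermal mesenchyme markers summed to 853 and 839 and 349 and 359.9 CPM, with 4 of 6 lower, and smooth muscle markers to 173 and 137 and 90.9 and 95.5, with 4 of 4 lower. Macrophage markers summed to 72 and 61.8 and 1.69 and 1.67 CPM and skeletal muscle markers to 142 and 225 and 68.5 and 42.9, each with 4 of 4 lower. Cartilage markers summed to 218 and 187 and 179.9 and 209 CPM, with 3 of 5 tested lower and 1 higher, and notochord markers to 44.9 and 39 and 75.5 and 48.3, with 3 of 4 higher. Mesonephric and coelomic markers summed to 214 and 188 and 52.4 and 45.7 CPM, with 3 of 5 lower and 1 higher. The part of these tissues in the collagen values was not tested.

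Crosslinking genes went with the fibrillar chains in AGM, all 6 being lower in libraries labelled E11.5 than E9.5. Lox lay at 34.2 and 22.2 CPM labelled E9.5, 11.504 and 10.3 labelled E10.5 and 2.82 and 2.32 labelled E11.5 (-3.30 ± 0.24, adjusted p = 4.73e-05). Of the biosynthesis genes 12 of 26 were lower and 3 higher, and of the receptors 7 of 10 were lower and 1 higher. Of all tested genes 24% were lower and 21.1% higher in this comparison. P3h3 changed by -2.09 ± 0.13, adjusted p = 2.13e-05, and P3h2, another prolyl 3-hydroxylase, by 1.09 ± 0.12, adjusted p = 0.000237. The integrin subunit Itga11, a receptor for fibrillar collagen, changed by -3.84 ± 0.28, adjusted p = 4.66e-05, and Ddr2 by -2.84 ± 0.11, adjusted p = 5.11e-06, while Ddr1 was higher (0.47 ± 0.16, adjusted p = 0.0413).

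AGM held more collagen RNA than E-titled skin of the same labelled age. At E9.5, 32 of the 44 chains were higher in AGM, 1 was lower and 11 did not pass (33.9% of all genes passed, 18% higher and 15.9% lower), with a median log2 difference of 1.72 over the chains and 0.04 over all genes. At E10.5, 21 were higher and 2 lower (24%). No sequencing project holds both tissues, so tissue and project cannot be told apart, and the age label of AGM is in doubt as given above. With ES-titled libraries taken as further skin libraries, edgeR called 0 chains at either age (6 and 7 at an unadjusted p under 0.05). That fit had a common dispersion of 0.664, so its 0 cannot decide whether the differences hold. The sign turned in it for several of the chains named here. Markers of some other cells were higher in AGM too. At E9.5 these were 4 of 4 macrophage (72 and 61.8 CPM in AGM, 1.4 in skin), 4 of 4 smooth muscle (173 and 137 CPM in AGM, 44.8 in skin), 5 of 5 red cell and 4 of 5 mesonephric and coelomic markers, and at E10.5 3, 4, 5 and 3 of them, with 1 mesonephric and coelomic marker lower. Neural markers were lower in AGM, 3 of 5 at E9.5 (1 higher) and 5 of 5 at E10.5. Of 6 epidermal markers 3 were lower at E9.5, and 2 were higher and 1 lower at E10.5. Of 6 cartilage markers 2 were higher and 1 lower at E9.5, and 2 higher and 3 lower at E10.5. Of 6 dermal mesenchyme markers 3 were higher at each age, with 1 lower at E9.5. No endothelial marker passed at either age. The part of these markers in the collagen values was not tested. Among chains above 5 CPM the largest difference at E9.5 was in Col9a2, with 73.6 and 42.9 CPM in AGM and 5.62 in skin (3.33 ± 0.39, adjusted p = 0.00057). Col9a3 differed by 3.20 ± 0.41, adjusted p = 0.000892, Col25a1 by 3.19 ± 0.16, adjusted p = 1e-05, and Col12a1 by 3.06 ± 0.30, adjusted p = 0.000224. The first of these coat fibrils in cartilage, and Col12a1 does so in fibrous tissue, but the sign of Col12a1 turned with ES-titled skin in the fit. At E10.5 Col25a1 differed most among chains above 5 CPM (2.18 ± 0.15, adjusted p = 3.26e-05), followed by Col9a3 (1.88 ± 0.42, adjusted p = 0.0129) and Col5a3 (1.74 ± 0.24, adjusted p = 0.00136). All 11 fibrillar chains were higher in AGM at E10.5. Col4a6 was lower in AGM at both ages, by -0.86 ± 0.16 at E9.5 (adjusted p = 0.00459) and by -0.84 ± 0.16 at E10.5 (adjusted p = 0.00639), and Col4a5 was lower at E10.5 (-0.77 ± 0.16, adjusted p = 0.0102).

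AGM labelled E11.5 was also set against E-titled skin of E9.5, a comparison added after the values of the check genes were seen. None of the 44 chains was higher and 2 were lower, Col25a1 (-0.77 ± 0.16, adjusted p = 0.0285) and Col26a1 (-0.64 ± 0.13, adjusted p = 0.0202), where 6.85% of all genes passed (4.06% higher). At an unadjusted p under 0.05 there were 14 (31.8% of chains and 21.2% of all genes), and DESeq2 called 5. With the AGM round as a block 10 chains passed, with no share of all genes given for that fit. The count was 5 without either round labelled E9.5, 1 without either round labelled E10.5 and 0 without either round labelled E11.5. Some chains lay close in level, as Col4a1 did with 486 and 423 CPM in AGM and 520.0 in skin (log2 difference -0.07 ± 0.17). Col9a3, with 2.34 and 3.39 and 3.11 (-0.00 ± 0.45), was another. Others lay further apart without passing. Col1a1 lay at 452 and 437 CPM in AGM against 231 in skin, Col12a1 at 11.8 and 11.3 against 18.5 and Col5a3 at 1.13 and 0.697 against 2.21. A difference below the threshold does not show that levels were equal.

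By the AGM labels, the step from E9.5 to E10.5 differed between the tissues for 6 chains, each with the AGM change below that of skin. These were 13.6% of the chains, while 7.67% of all genes passed in edgeR (5.04% lower). At an unadjusted p under 0.05 there were 20 chains (45.5%), and 22.9% of all genes. The sign of each AGM change rests on the order of the AGM labels, which is in doubt as given above. Col12a1 changed by -1.71 in AGM and 0.39 in skin, a difference of -2.10 ± 0.37, adjusted p = 0.0137. Col14a1 changed by -1.64 and 0.17 (-1.81 ± 0.35, adjusted p = 0.0192), and Col9a2 by -1.96 and 0.53 (-2.49 ± 0.51, adjusted p = 0.0246). With the AGM round as a block 19 chains passed, and without the second round labelled E9.5, 14. No share of all genes is given for these fits.

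Levels of different chains can be compared per length, here CPM per kilobase of the longest coding transcript in GENCODE M21 (CPM per kb). By this length Col3a1 led in E-titled skin at every age, at 103, 89.8, 601 and 1922 CPM per kb. At E9.5 and E10.5 it was followed by Col18a1, at 96.3 and 77.8, and at E14.5 by Col1a1, at 1765. In ES-titled skin Col1a2 and Col3a1 led, at 494, 655, 486 and 623 and 496, 601, 482 and 671 CPM per kb, ahead of Col6a3 at 358, 451, 432 and 495. In AGM labelled E9.5 and E10.5 Col3a1 led, and in both rounds labelled E11.5 Col18a1 did, at 105 and 93.7 CPM per kb. The order rests on the length used. With all exons joined, Col18a1 led E-titled skin at E9.5, Col4a1 at E10.5 and Col1a1 at E12.5 and E14.5, and in ES-titled skin Col6a1, Col1a1, Col6a1 and Col6a3 led by age. The leading chains of all 6 AGM libraries were as above under both lengths.

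Partner chains kept a narrow ratio for some collagens and not for others. Collagen I holds more Col1a1 than Col1a2 chains, and the RNA ratio Col1a1/Col1a2 per kb was 0.889, 0.484, 0.847 and 1.31 in E-titled skin by age. It was 0.549, 0.682, 0.56 and 0.655 in ES-titled skin, and in AGM 0.794 and 0.624 labelled E9.5, 0.63 and 0.559 labelled E10.5 and 1.55 and 1.43 labelled E11.5. The 3 highest ratios were those of both AGM rounds labelled E11.5 and of E-titled skin of E14.5. The level depends on the length used, since with all exons joined the median rose from 0.668 to 1.40 and all 14 ratios were above 1, in the same order. Col4a1/Col4a2, of the gene pair with the shared start, stayed between 1.15 and 1.84 in the 14 libraries, with ES-titled skin lowest at 1.15 to 1.26. Col4a5/Col4a6, of another such pair, ran from 1.57 and 1.65 in AGM labelled E11.5 to 6.24 in skin of E12.5, and was higher still in the 2 ES-titled libraries with 10 counts of each gene.

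**Figure D4:**
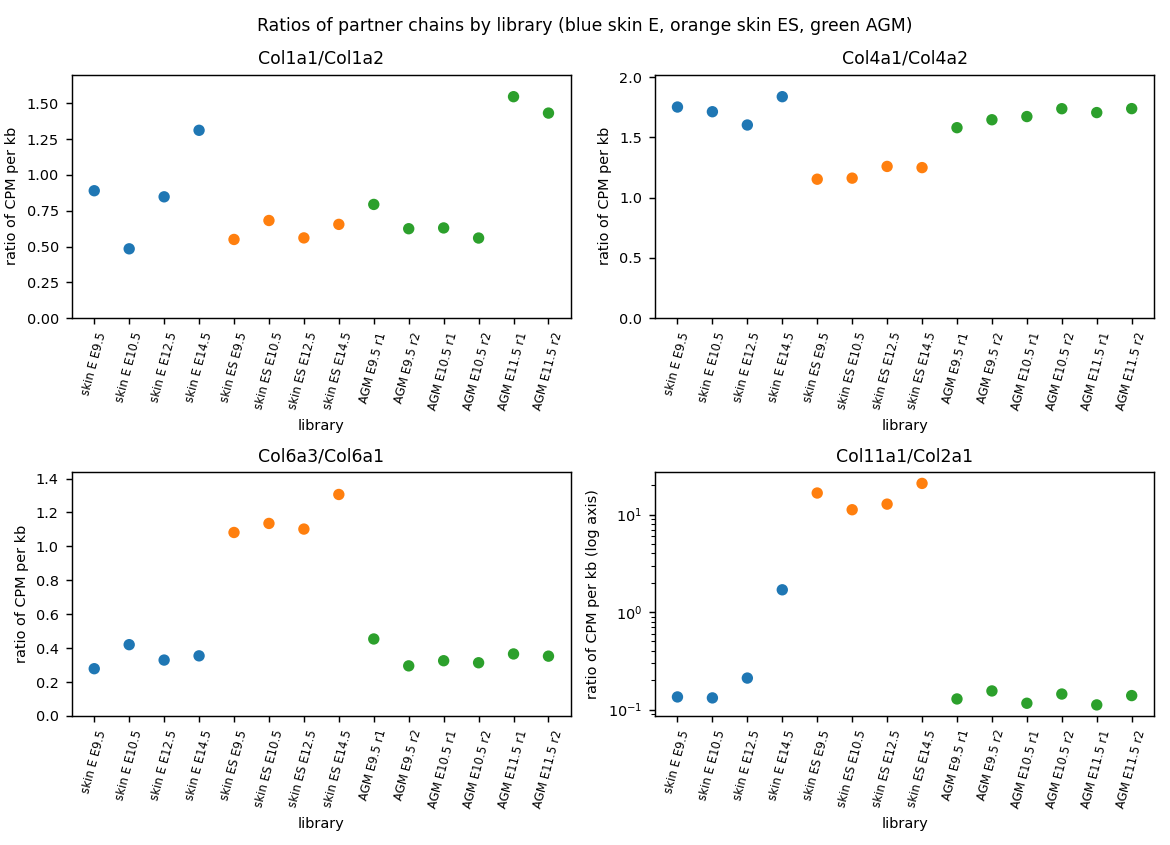
Ratios of CPM per kb of partner chains (y axis, log scale for Col11a1/Col2a1) in each of 14 libraries (x axis), for Col1a1/Col1a2, Col4a1/Col4a2, Col6a3/Col6a1 and Col11a1/Col2a1. Blue is E-titled skin, orange ES-titled skin and green AGM. ES-titled skin stands apart in 3 of the panels, with Col6a3/Col6a1 at 1.08 to 1.31 against 0.279 to 0.42 in E-titled skin.

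Ratios of collagen VI chains split by title. Col6a3/Col6a1 was 1.08, 1.14, 1.1 and 1.31 in ES-titled skin and 0.279, 0.42, 0.33 and 0.355 in E-titled skin, with AGM between 0.295 and 0.454. Col6a1/Col6a2 was 1.67 to 1.87 in ES-titled and 0.848 to 1.12 in E-titled skin. For cartilage, Col11a1/Col2a1 was 0.135, 0.132, 0.211 and 1.69 in E-titled skin, so that only at E14.5 was Col11a1 above Col2a1. In ES-titled skin it was 11.2 to 20.9, and in AGM at most 0.155. Col9a1/Col9a2 was 6.31, 5.1, 0.797 and 0.119 over the 4 ages of E-titled skin. In AGM it was 2.17 and 3.2 labelled E9.5 and 7.21 and 5.06 labelled E11.5.

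Reads of a chain can include those of overlapping genes, and the strand setting of the counting was not given in these sources. Annotated exons of any 1 other gene covered at most 1.9% of a chain's exons, apart from Col4a3 (5.65%, by C430014B12Rik) and Col9a3 (6.07%, by the opposite gene Tcfl5). The Col4a1 and Col4a2 overlap of 22 bases was 0.295% and 0.332% of their exons.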

How the data were processed

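PolyA RNA-seq of 14 libraries was used. The authors deposited whole-number read counts per gene, made with Trimmomatic 0.36, STAR 2.5.0a and featureCounts 1.6.0 on GRCm38, per the submitters' processing notes, which also list DESeq2 1.20.0. CPM were computed from library totals. Calls came from edgeR 4.0.16 (R 4.3.3; filterByExpr, TMM scaling, quasi-likelihood test, Benjamini-Hochberg over all tested genes, adjusted p under 0.05), with DESeq2 1.42.0 as an alternative. AGM labels were fitted over 6 libraries (41 chains tested), E-titled skin and tissue comparisons over 10 (44), and ES against E titles over 8 with age as a block (40). Each lone skin library was assumed to vary like the AGM pairs. In the 8-library fit the spread comes from how the title difference varied between ages.

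Sequencing rounds gave AGM libraries their replicate numbers. The deviations of same-numbered libraries went together (correlations of 0.605, 0.429 and 0.523 over 15747 genes), so blocked counts stand beside results they change. No share of all genes stands beside a blocked count, so such a count does not set the chains apart from other genes. Chains and gene lists were chosen with earlier results of these data known. In each comparison chains that passed with at least 5 CPM in the higher group were named, up to 10 per direction. Partner and basement membrane chains, and all list genes with a test printed, were chosen after their values were seen. Lengths and positions came from GENCODE M21, promoters from RefSeq. On simulated counts the AGM E11.5 against E9.5 fit (17613 genes) found 70.7% of genes changed 2-fold and 97% of those changed 4-fold. For skin E12.5 against E10.5 (19945 genes) these shares were 47.3% and 83.7%, and for ES against E (16588 genes) 8.33% and 83%. Each simulation gave all genes 1 common spread, taken from the fit itself. For the skin step that spread came from the AGM pairs, so the shares do not cover lone skin libraries that vary more.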

Additional observations from a re-analysis of the deposited data

Results flagged for a closer look

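For 6 chains the change from E9.5 to E10.5 differed between AGM, by its labels, and E-titled skin. The difference of the 2 changes was tested in edgeR with adjustment over all genes. It passed for 13.6% of the chains and 7.67% of all genes. The AGM change minus the skin change was -3.52 for Col8a1, -2.49 for Col9a2, -2.10 for Col12a1, -1.81 for Col14a1, -1.01 for Col25a1 and -0.92 for Col11a1. In AGM the changes were -1.88, -1.96, -1.71, -1.64, -0.56 and -0.71 in the same order, and in skin 1.64, 0.53, 0.39, 0.17, 0.45 and 0.21. Skin has 1 library per age here, and Col8a1 lay at 0.903 and 2.82 CPM in those. The sign of each AGM change rests on the order of the AGM labels, which is in doubt. Tissue and sequencing project cannot be told apart.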

How the results depend on the processing

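For single genes with a printed test, 1528 of the values recomputed under another setting kept their direction and call, 336 kept their direction only and 32 changed sign, all of these with ES-titled libraries in the fit. The cause was not tested. Counts of chains that passed moved as follows. AGM E10.5 against E9.5 gave 11, and 19 with DESeq2, 24 with no filter on low counts, 27 with the replicate block and 0 to 16 leaving out a library. AGM E11.5 against E10.5 gave 31 (21 to 32 leaving out a library), E11.5 against E9.5 34 (32 to 36). Skin E10.5 against E9.5 gave 2, and 8 with no filter, 10 with the block and 2 to 3 without an AGM library. Skin E12.5 against E10.5 gave 36 in each such fit, and E14.5 against E12.5 31 (30 to 33). AGM against skin gave 33 at E9.5 (31 to 33) and 23 at E10.5 (19 to 27). AGM E11.5 against skin E9.5 gave 2, and 5 with DESeq2, 11 with no filter, 10 with the block and 0 to 5 leaving out a library. The difference between tissues gave 6, and 11, 21, 19 and 4 to 14. ES against E gave 23, 26 with no age term and so no replicate block, and 19 to 31 leaving out libraries. The block changed no other total by over 1.5 times, but moved chains higher from 2 to 4 in AGM E11.5 against E10.5 and chains lower from 1 to 2 in AGM against skin at E9.5. With all 14 libraries every comparison but ES against E gave 0, in a fit with a common dispersion of 0.664. With blocks, where the dispersion was 0.0923, the AGM pairs gave 0, 2 and 4 and AGM against skin 13, 11 and 11. Each skin step (also over the 8 skin libraries with a block) and the difference between tissues gave 0. ES-titled steps past 2-fold were 3, 12 with a pseudocount of 0.1 CPM and 2 with 2 CPM. The median Col1a1/Col1a2 ratio was 0.668, and 1.40 with all exons joined as the length, an alternative chosen after seeing the data.

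With all 14 libraries, and then with blocks, the signs turned for AGM minus skin at E9.5 in Col12a1 (-1.29, -0.0795), Col8a1 (-3.89, -2.02), Col6a3 (-5.66, -2.80) and Col4a6 (0.15, 1.62). At E10.5 they turned in Col5a3 (-3.71, -1.54), Col7a1 (-4.79, -2.61), Col1a1 (-2.29, -1.67), Col5a2 (-2.62, -1.57), Col1a2 (-2.13, -1.35), Col16a1 (-3.43, -2.14) and Col4a6 (0.0907, 1.25). Col26a1 turned in AGM E11.5 against skin E9.5 (0.36, 4.57), and Col7a1 in skin E10.5 against E9.5 (0.53, 0.13, and 0.0491 over 8 skin libraries). Without blocks only, Col6a3 (-0.0357), Col7a1 (-0.32), Lox (-0.0842) and Loxl3 (-0.53) turned in skin E12.5 against E10.5, and Loxl3 (0.32) in E14.5 against E12.5. ES-titled libraries had the fewest counts, so chains with a few counts there are the least precise.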
